A study of Mus musculus with 4 samples.

Results

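The core circadian clock loop was followed in female mouse liver after knockdown of Cux2, a CUT homeodomain transcription factor of female liver. The loop was taken as 10 genes, chosen by name and with earlier results of these data known. These were the activators Arntl, Clock and Npas2, the repressors Cry1, Cry2, Per1, Per2 and Per3, and the nuclear receptors Nr1d1 and Nr1d2. Their RefSeq transcripts were carried by 17 of the 41174 probes on the array. After probes near background were left out, 16 probes and 9 of the 10 members remained, among 25104 genes tested in all. Npas2 was the member that did not pass. Of those 25104, 14075 had a gene symbol, and the others were known only by the identifier in the array design, so shares and ranks among all genes include them.

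Livers came from female CD-1 mice, an outbred stock, 8 weeks of age. Treated mice received siRNA against Cux2 and were killed 5 days later (5 mice, as a pool of 3 and a pool of 2) or 8 days later (4 mice, as 2 pools of 2). Control mice of the same stock, sex and age received a non-specific siRNA (13 mice in 2 pools by the series text, whereas each array is described as holding RNA of 6 control mice). All mice received an siRNA, so the ratios set one siRNA against another. Each of the 4 arrays hybridised a treated pool against a control pool, giving 2 arrays per day. In replicate 1 of each day the treated RNA carried Alexa 647, and in replicate 2 it carried Alexa 555. Replicate number and dye orientation therefore cannot be told apart. Which control pool was on which array, the interval after which control mice were killed and the hour of killing are not given in the sources used here. Because the 2 control pools served all 4 arrays, the comparisons at day 5 and day 8 share controls.

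The clock is a transcriptional feedback loop. BMAL1, the product of Arntl, pairs with CLOCK or NPAS2 and switches on genes that carry E-box elements, among them the Per, Cry and Nr1d genes. PER and CRY proteins return to the nucleus and block that pair, while the receptors REV-ERB alpha and beta (from Nr1d1 and Nr1d2) repress Arntl, Clock, Npas2 and Cry1 through RORE elements. In liver most of these transcripts rise and fall every day, each with its own peak, and the timing follows feeding as well as light. The level of a clock transcript thus depends on the hour of sampling as well as on the treatment.

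Each value below is a log2 ratio of treated over control fluorescence, so 1 is a doubling and -1 a halving. Between 71.1% and 74.6% of probes were well above background in a channel, 99 to 204 spots per array were flagged and 0 were saturated. The targeted transcript, Cux2, was lower on every array, at -1.91 and -1.70 at day 5 and -1.07 and -1.20 at day 8, or 2.77-fold lower over both days (limma adjusted p = 0.000915). With only 4 arrays the estimates are imprecise. The fit had no term for replicate or dye, so its p-values rest on the gap between the 2 arrays of a day. That gap holds differences between pools and the dye exchange together, so the p-values do not measure spread between pools alone. The 4 ratios were fitted as independent although they share 2 control pools, and the effect of this sharing was not tested. In whole liver, fewer cells of a type and less RNA per cell cannot be told apart. Transcripts of immune cells moved with the treatment on the arrays described here: of 5 neutrophil markers 4 fell, 0 rose and 1 did not pass over both days (summed level 11797 to 16787 in control channels and 1886 to 3431 in treated channels), and of 7 macrophage markers 5 fell and 0 rose (51807 to 55191 against 29448 to 39366). Every marker tested from these lists was well above background in all 8 readings but the neutrophil gene Ngp, which was so in 2 treated and 3 control readings. Hepatocyte markers overlapped between groups in summed level (359530 to 615286 in control and 457399 to 579081 in treated channels), with 1 of 4 higher and 1 of 4 lower. Beside these marker counts, 31.1% of all genes tested were called over both days (14.8% rose and 16.3% fell). Day 8 replicate 1 stood apart for transcripts of exocrine pancreas, with a median ratio of 0.57 over 6 markers, where the other arrays gave -2.74, -3.94 and -3.69. The part of these movements in the clock values was not tested.

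Promoter windows of the members, 250 bases before to 50 bases after the transcription start, are shown where they hold an element through which the loop acts on itself. RefSeq (mouse build GRCm38.p6) gave 13 windows for 9 of the 10 members. The member without a window was Per2, whose promoter was not searched. Letters were searched on both strands: the E-box CACGTG, found in 7.15% of all 32851 windows of this length, its variant CACGTT (4.68%), the D-box TTANGTAA bound by DBP and NFIL3 type factors (2.32%), and the RORE, searched as the half-site AGGTCA preceded by AANT (0.219%). Of the 9 members, 6 held a match and Clock, Npas2 and Nr1d2 held none, and no matches overlapped. Arntl had 2 windows, Clock 3 and Per1 2, and the share of all genes with a match to any of these elements was not counted. The sequences run 5′ to 3′ along the gene's own strand, with the matched letters in capitals. Arntl is shown for its RORE at positions 28 to 37 after the start (plus strand, chr7:113207528-113207557).
Arntl: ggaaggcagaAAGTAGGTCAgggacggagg
Cry1 is shown for an E-box variant read on the opposite strand and a full E-box (minus strand, chr10:85185099-85185143).
Cry1: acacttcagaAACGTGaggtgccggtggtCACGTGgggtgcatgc
Cry2 is shown for a variant on the opposite strand (minus strand, chr2:92434220-92434245).
Cry2: acatggtgggAACGTGagggggcgga
Per1 is shown for its full E-box (plus strand, chr11:69098773-69098798).
Per1: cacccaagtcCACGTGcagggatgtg
Per3 is shown for 2 D-boxes of the same letters (minus strand, chr4:151044806-151044880).
Per3: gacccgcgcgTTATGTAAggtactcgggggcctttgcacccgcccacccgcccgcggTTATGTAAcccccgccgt
Nr1d1 is shown for a variant on the opposite strand (minus strand, chr11:98775390-98775415).
Nr1d1: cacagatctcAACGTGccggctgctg

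Over both days, Arntl, Clock, Cry1 and Per2 rose and Nr1d1 and Nr1d2 fell, while Cry2, Per1 and Per3 did not pass the test. That is 6 of 9 members called by limma at an adjusted p under 0.05, where 31.1% of all genes tested were called (14.8% rose and 16.3% fell). At day 5 alone the same 6 members were called, against 16.8% of all genes (7.38% rose and 9.42% fell). At day 8 alone 5 were called, all of these but Arntl, against 14.3% of all genes (6.27% rose and 8.05% fell). The median ratio of the 9 members over both days was 0.02, beside 0.00 for all genes, since members moved both ways. Without day 8 replicate 1, the array that stood apart for pancreatic transcripts, 6 members were called over both days and 3 at day 8. With each array centred on its median in place of the intensity-dependent loess curve, 2 were called over both days, Per2 and Nr1d1, and 0 at either day alone. The ratios over both days moved little under that setting (Arntl 1.39, Clock 0.69, Cry1 1.33, Nr1d2 -0.99), while their SEs were larger (0.38, 0.21, 0.17 and 0.17).

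**Figure D1:**
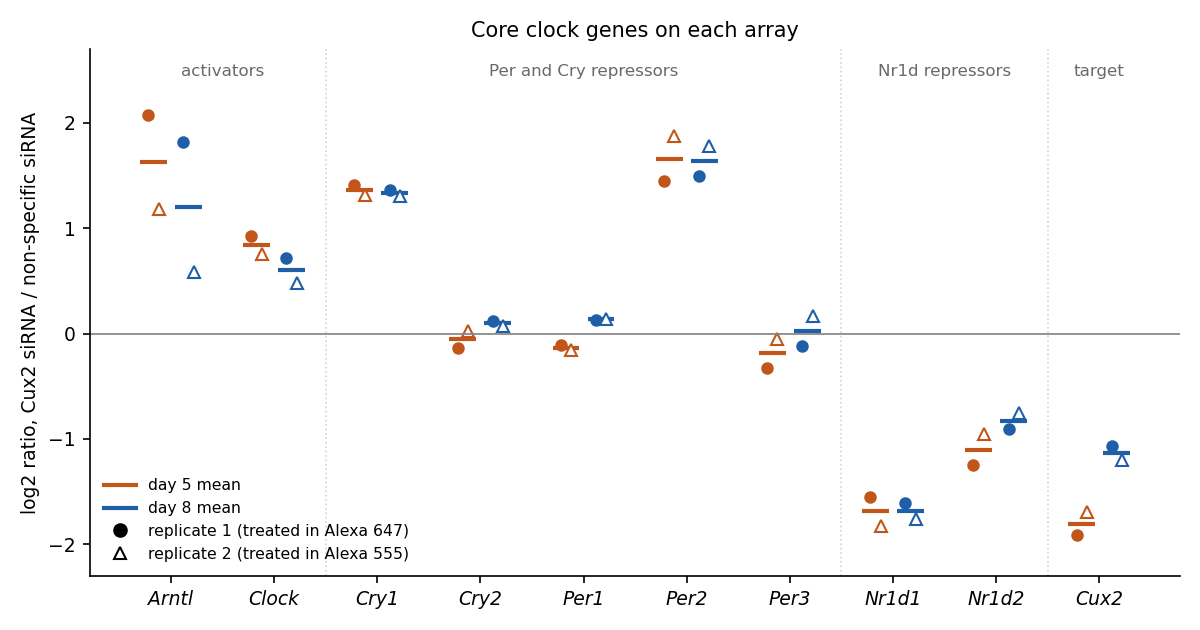
Log2 ratio of treated over control (vertical axis) for each tested member and Cux2, with circles for replicate 1, open triangles for replicate 2 and bars for the mean of each day. Arntl, Clock, Cry1 and Per2 lie above 0 on 4 of 4 arrays, Nr1d1 and Nr1d2 below 0 on 4 of 4, and Cry2, Per1 and Per3 on both sides.

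Among the activators, Arntl encodes BMAL1, the partner without which the positive limb does not run. Its ratios were 2.07 and 1.18 at day 5 and 1.82 and 0.59 at day 8. All 4 were above 0. The channel levels did not overlap, at 9.28 to 9.85 log2 units in control channels and 10.44 to 11.35 in treated channels. Here and for the members below such separation is description only, since its share among all genes was not counted. The control channels of the 4 arrays also held only 2 control pools. The mean was 1.63 at day 5 (SE 0.35, n = 2, 3.09-fold, limma adjusted p = 0.0433), 1.20 at day 8 (SE 0.35, n = 2, limma adjusted p = 0.0925) and 1.41 over both days (SE 0.25, n = 4, 2.67-fold, limma adjusted p = 0.0160). It ranked 50 from the top of all 25104 genes over both days.

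The size of the Arntl difference followed the replicate number, and with it the dye. Arrays with treated RNA in Alexa 647 averaged 1.94 and those with the dyes exchanged averaged 0.88, a gap of 1.06 within the same gene. A dye effect and a difference between the pools cannot be told apart here, and the gap widens the error of the mean. The call at day 5 was lost under 7 of 13 alternatives, with limma adjusted p from 0.0656 to 0.482, among them the ratios without replicate 1 of that day (1.18, limma adjusted p = 0.216) and without replicate 2 (2.07, limma adjusted p = 0.117). Over both days it was lost without day 5 replicate 1 (1.19, limma adjusted p = 0.0501), without background subtraction (limma adjusted p = 0.0572) and with median centring (limma adjusted p = 0.188).

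Clock, which encodes the partner of BMAL1 with histone acetyltransferase activity, rose by less. Ratios were 0.93 and 0.75 at day 5 and 0.72 and 0.48 at day 8. Control channels spanned 10.80 to 10.99 log2 units and treated channels 11.47 to 11.74, with no overlap. Over both days the mean was 0.72 (SE 0.07, n = 4, 95% interval 0.55 to 0.89, 1.65-fold, limma adjusted p = 0.00337). By day it was 0.84 (limma adjusted p = 0.0111) and 0.60 (limma adjusted p = 0.0234), and each of these calls was lost when either array of that day was left out (day 5 limma adjusted p = 0.0739 and 0.0762, day 8 0.121 and 0.0954). In all, the day 8 call was lost under 7 of 13 alternatives, with limma adjusted p from 0.0519 to 0.816. The other probes for Clock averaged 0.64 and 0.55, so all 3 probes lay on the same side of 0. Their mean log2 intensities were 10.53 and 7.19, beside 11.24 for the probe that stands for the gene.

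Npas2 encodes the paralogue that can take CLOCK's place. Its only probe was well above background in 1 of 4 treated readings and 0 of 4 control readings. It was not tested and no fold is given.

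**Figure D2:**
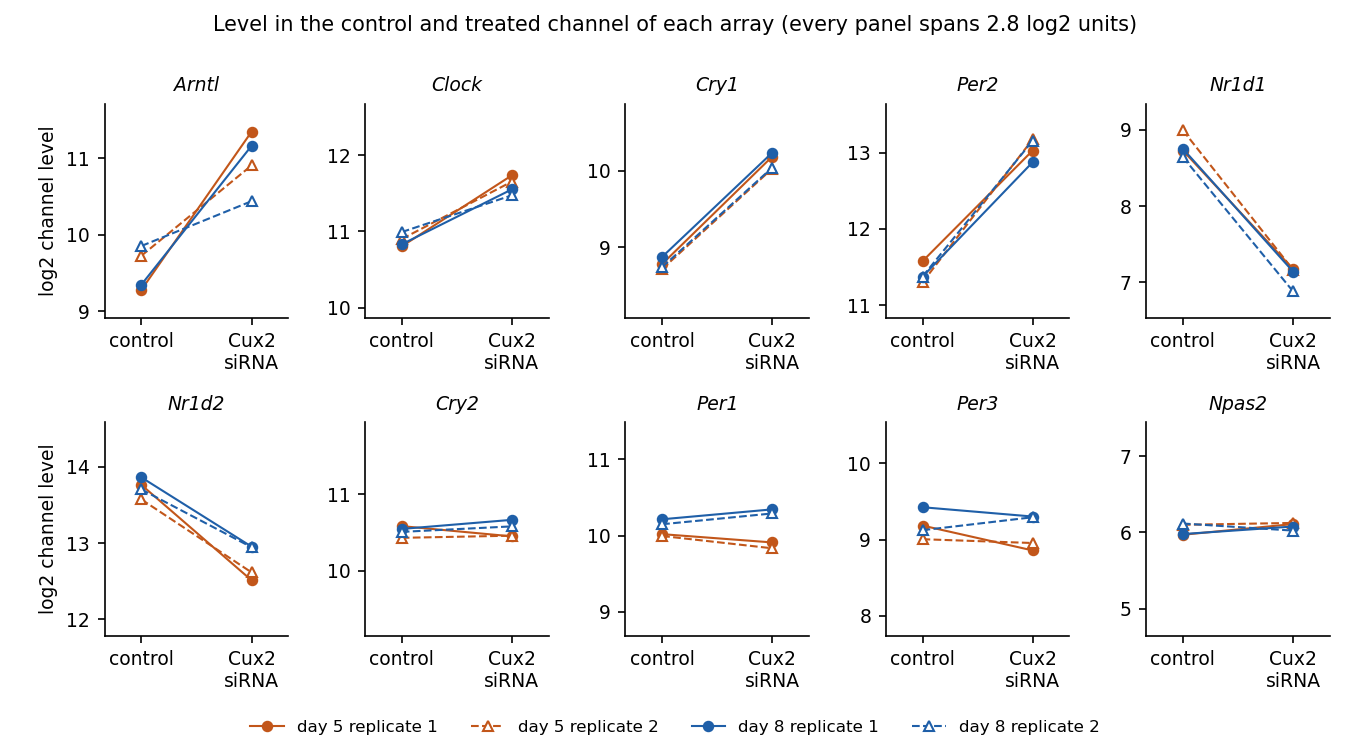
Normalised level of each member in log2 units (vertical axis, 1 panel a gene) in the control and the treated channel, with a line joining the channels of each of the 4 arrays. Control and treated points are apart for Arntl, Clock, Cry1, Per2, Nr1d1 and Nr1d2 and overlap for Cry2, Per1, Per3 and Npas2. The share of all genes with points apart was not counted. Levels of different genes are not comparable because each probe has its own response.

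Of the CRY and PER repressors, 1 member of each family rose and the others did not pass. Cry1, which encodes a strong and late repressor of the BMAL1 pair, gave 1.41 and 1.32 at day 5 and 1.37 and 1.31 at day 8. These 4 values span 0.10, the narrowest range among the members. Levels were 8.71 to 8.87 in control and 10.03 to 10.24 in treated channels, with no overlap. The mean over both days was 1.35 (SE 0.05, n = 4, 95% interval 1.22 to 1.48, 2.55-fold, limma adjusted p = 0.000775), and by day 1.36 (limma adjusted p = 0.00342) and 1.34 (limma adjusted p = 0.00387). Its other probe averaged 1.55. Median centring raised the adjusted p over both days to 0.0523.

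Cry2, the paralogue whose product also blocks the BMAL1 pair, gave -0.13 and 0.03 at day 5 and 0.12 and 0.07 at day 8. Control (10.43 to 10.58) and treated (10.45 to 10.67) levels overlapped. Over both days the mean was 0.02 (95% interval -0.12 to 0.16, limma adjusted p = 0.805). The other probe averaged 0.03, but was dim, at a mean log2 intensity of 6.63 beside 10.53. The difference between the paralogues was not tested.

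Per2, a PER protein gene that responds to both the clock and systemic cues, had the highest mean over both days among the probes that stand for members. Its ratios were 1.45 and 1.87 at day 5 and 1.50 and 1.78 at day 8. Control levels of 11.30 to 11.58 and treated levels of 12.87 to 13.17 did not overlap. The mean over both days was 1.65 (SE 0.09, n = 4, 95% interval 1.41 to 1.90, 3.14-fold, limma adjusted p = 0.00145), with 1.66 at day 5 (limma adjusted p = 0.00664) and 1.64 at day 8 (limma adjusted p = 0.0079). It ranked 27 from the top of all genes over both days. The call at day 8 was lost without replicate 2 of that day (1.50, limma adjusted p = 0.0632).

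Those values come from the brighter of 2 probes for Per2, and the other gave values near 0. These were -0.02, -0.07, 0.07 and 0.08, with all 8 channel readings well above background. Its mean log2 intensity was 6.87, however, beside 12.23 for the brighter probe and 6.06 for the untested Npas2 probe. Whether the low signal narrowed its ratios was not tested. Averaging the probes gave 0.83 over both days, which also passed but lay below Arntl (1.41) and Cry1 (1.45) computed the same way.

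Per1, an early PER gene that light and glucocorticoids can induce, gave -0.11 and -0.16 at day 5 and 0.13 and 0.14 at day 8. Treated levels (9.83 to 10.34) overlapped control levels (9.99 to 10.21). The mean was -0.13 at day 5 (95% interval -0.31 to 0.04, limma adjusted p = 0.234) and 0.14 at day 8 (-0.04 to 0.31, limma adjusted p = 0.242).

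Per3, the PER gene least needed for rhythm in mice, gave -0.33 and -0.05 at day 5 and -0.12 and 0.17 at day 8. Its levels overlapped too, at 9.004 to 9.42 in control and 8.86 to 9.30 in treated channels. The mean over both days was -0.08 (95% interval -0.29 to 0.12, limma adjusted p = 0.498). As for Per1 and Cry2, the intervals hold 0 and do not reach the size seen for Per2 or Cry1.

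**Figure D3:**
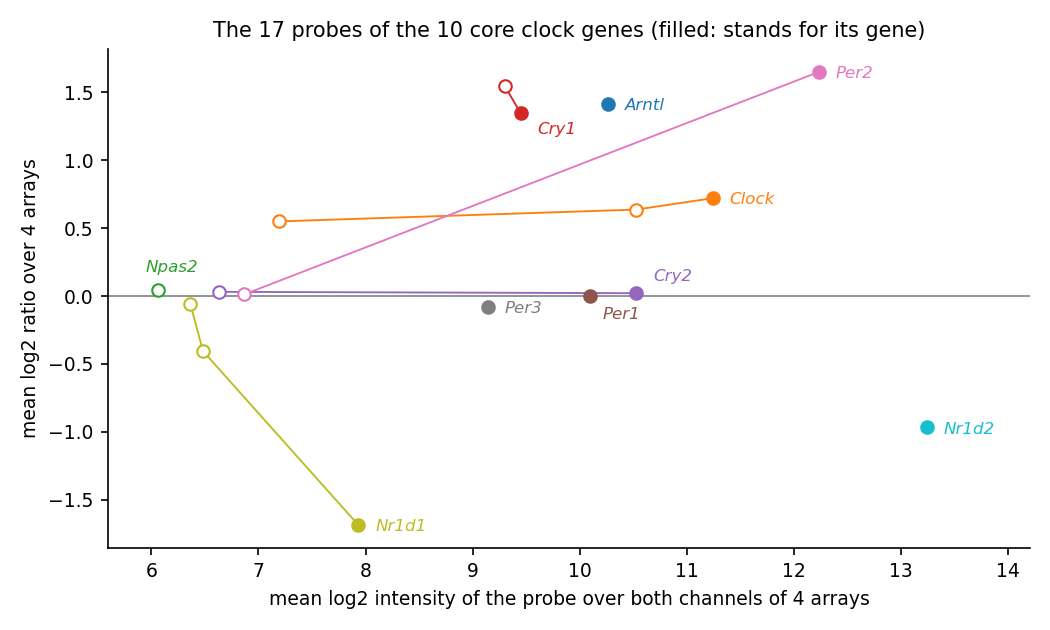
Mean log2 ratio over the 4 arrays (vertical axis) against mean log2 intensity (horizontal axis) for the 17 probes, with lines joining probes of a gene and filled points for the probe that stands for it. Probes for Clock, Cry1 and Cry2 lie at like heights, whereas for Per2 and Nr1d1 the filled probe lies at 1.65 and -1.69 and the others between -0.41 and 0.01. The open probes of Per2, Nr1d1 and Cry2 lie at low intensities, from 6.36 to 6.87. The dimmest Clock probe, at an intensity of 7.19, lies at 0.55.

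Both REV-ERB genes fell. Nr1d1 encodes REV-ERB alpha, the main repressor of Arntl in liver. It gave -1.55 and -1.83 at day 5 and -1.61 and -1.76 at day 8. Control levels were 8.64 to 8.99 and treated levels 6.88 to 7.17, with no overlap. The mean over both days was -1.69 (SE 0.07, n = 4, 95% interval -1.86 to -1.51, 3.22-fold lower, limma adjusted p = 0.000862), and by day -1.69 (limma adjusted p = 0.00424) and -1.68 (limma adjusted p = 0.00483). It ranked 191 from the bottom of all 25104 genes over both days.

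The size for Nr1d1 depended on the probe and on how background was treated, although over both days it was negative and called under every alternative run. Its other probes averaged -0.41 and -0.06, each well above background in 7 of 8 readings, and the mean of all 3 probes gave -0.72. Those other probes were dimmer, with mean log2 intensities of 6.48 and 6.36 beside 7.93. Whether low signal narrowed their ratios was not tested. The scanner's processed signals gave -2.35, an offset of 0 gave -2.20 and no background subtraction gave -0.80.

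Nr1d2 encodes REV-ERB beta, which shares much of that work. Its ratios were -1.25 and -0.96 at day 5 and -0.91 and -0.76 at day 8. Control channels lay at 13.57 to 13.86 and treated channels at 12.51 to 12.95, again apart. Over both days its mean was -0.97 (SE 0.07, n = 4, 95% interval -1.15 to -0.78, 1.96-fold lower, limma adjusted p = 0.00214). At day 8 the mean of -0.83 passed (limma adjusted p = 0.0141), but not without replicate 1 (-0.76, limma adjusted p = 0.079) or replicate 2 (-0.91, limma adjusted p = 0.0883) of that day.

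Set side by side by role, the activators and the REV-ERB genes moved in opposite directions and the PER and CRY genes were split. The mean ratio of the 2 tested activators was 1.50, 0.97, 1.27 and 0.53 on the arrays in the order day 5 replicates 1 and 2, day 8 replicates 1 and 2. For the 2 REV-ERB genes it was -1.40, -1.39, -1.26 and -1.26. The activators thus exceeded the REV-ERB genes by 2.90, 2.36, 2.53 and 1.79 on those arrays. For the 5 PER and CRY genes the mean was 0.46, 0.60, 0.60 and 0.69, which hides a range from -0.33 to 1.87. Activators exceeded this mean on 3 arrays, by 1.04, 0.37 and 0.67, and lay below it on day 8 replicate 2, by -0.16. Both differences were larger in replicate 1 of each day, as were the ratios of Arntl and Clock. Replicate number is also the dye orientation. These contrasts are a description of a few genes and carry no test.

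The promoter letters can be read beside these values. Matches to the E-box or its variant lay in windows of a member that rose (Cry1), of a member that fell (Nr1d1) and of members that did not pass (Cry2 and Per1). Per2 had no window to search. The RORE match lay in Arntl, which rose as Nr1d1 and Nr1d2 fell, and no RORE match was in the windows of Clock or Cry1. A match is a run of letters and not a site known to be bound.

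No member passed the test between the days. limma called 0 of 9 members and 0 of 25104 genes (0% of all genes) for day 8 minus day 5, with 1 member and 621 genes at an unadjusted p under 0.05. Nr1d1 differed by 0.01 (95% interval -0.35 to 0.36), Per2 by -0.02 (-0.51 to 0.47) and Cry1 by -0.03 (-0.28 to 0.23). The interval for Arntl was wider, -1.73 to 0.88 around -0.42,. Clock (-0.24) and Nr1d2 (0.27) were nearer to 0 at day 8, with intervals of -0.59 to 0.11 and -0.10 to 0.64. Cux2 itself was less reduced at day 8 than at day 5, by 0.67 (0.35 to 0.99, unadjusted p = 0.0031, limma adjusted p = 1).

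**Figure D4:**
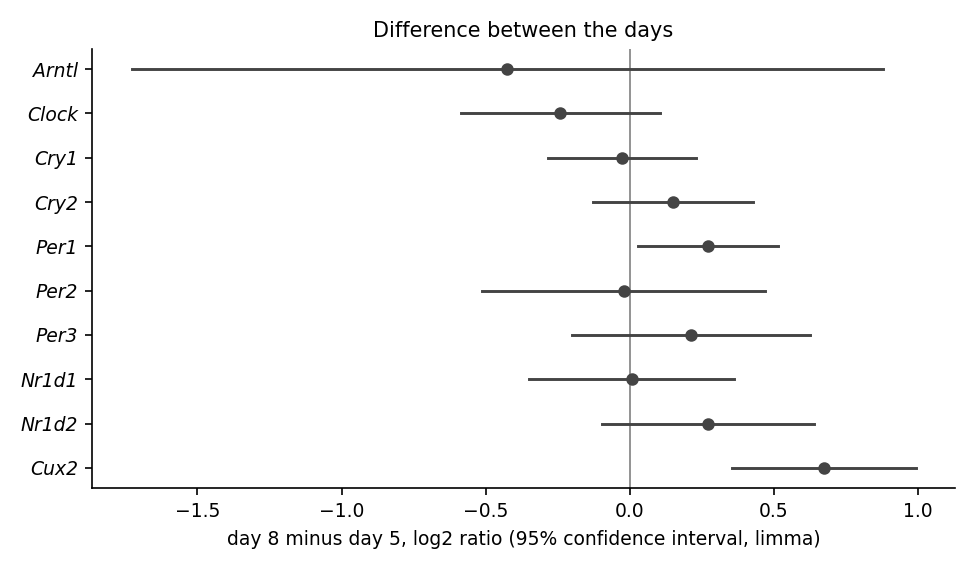
Difference in log2 ratio, day 8 minus day 5 (horizontal axis), for each tested member and Cux2, with 95% intervals from the limma fit. Intervals for Nr1d1, Per2 and Cry1 are centred near 0, that of Arntl is the widest, and those of Per1 and Cux2 lie above 0 without passing after adjustment.

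Other genes of the clock pathway moved in both directions. Of 17 genes that modify the loop or form its second limb, 14 were tested (Rorb, Bhlhe41 and Arntl2 were not), and over both days 3 rose, 3 fell and 8 did not pass, beside 31.1% of all genes called (14.8% rose and 16.3% fell). The median was 0.03. Usp2, a deubiquitinase that acts on clock proteins, rose by 0.70 (limma adjusted p = 0.00647), and Cipc, an inhibitor of CLOCK, by 0.29 (limma adjusted p = 0.0222). Timeless, a replication fork protein with a debated clock role, fell by 0.68 (limma adjusted p = 0.00586). Ciart, a clock repressor, gave -1.17, -0.33, -0.15 and 0.49 on the arrays and averaged -0.29 (limma adjusted p = 0.288).

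Clock-driven genes of liver were also split. Of 12 such genes, all tested, 6 rose, 2 fell and 4 did not pass over both days, beside the same 31.1% of all genes called. The median was 0.26, and 0.00 for all genes. Dbp, a D-box activator driven through E-boxes, gave -1.41, -1.61, -1.37 and -1.22, a mean of -1.40 (SE 0.06, limma adjusted p = 0.000999). Lpin1, a phosphatidate phosphatase and coactivator, averaged -1.32 (limma adjusted p = 0.0045). In the other direction, Noct, a rhythmic phosphatase of NADP(H), averaged 1.22 (limma adjusted p = 0.00669) and Alas1, the rate-limiting enzyme of heme synthesis, 0.81 (limma adjusted p = 0.0038). Dbp thus lay on the same side of 0 as Nr1d1, while Per2 and Cry1, which E-boxes also drive, lay on the other. For the loop genes these are values of the brightest probe. The dimmer probes averaged -0.41 and -0.06 for Nr1d1, 0.01 for Per2 and 1.55 for Cry1.

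Glucocorticoids can set clock genes in liver, Per1 among them, so 8 responsive genes were read beside the loop. Of the 6 tested, 1 rose (Tsc22d3, an anti-inflammatory leucine zipper protein, 0.84, limma adjusted p = 0.00165), 1 fell (Klf9, a Kruppel-like factor, -0.70, limma adjusted p = 0.00267) and 4 did not pass, with a median of -0.01. That share is near the 31.1% called among all genes. Fkbp5, a co-chaperone of the glucocorticoid receptor, averaged -0.32 (limma adjusted p = 0.0677) and Sgk1, a kinase, 0.14 (limma adjusted p = 0.308).

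**Figure D5:**
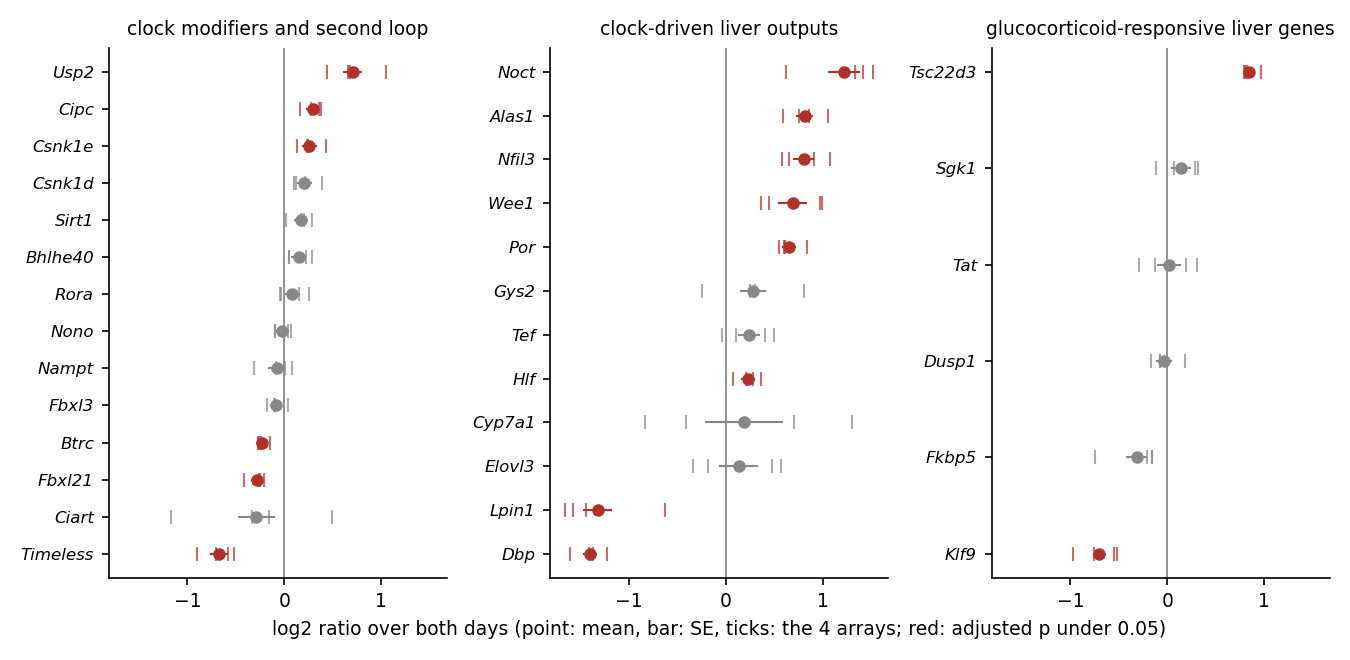
Log2 ratio (horizontal axis) for each tested gene of 3 lists, the clock modifiers, the clock-driven liver genes and the glucocorticoid-responsive genes, with points for the mean over both days, bars for the SE, ticks for the 4 arrays and red for an adjusted p under 0.05. Each list holds genes on both sides of 0, from Usp2 at 0.70 to Timeless at -0.68 among the modifiers and from Noct at 1.22 to Dbp at -1.40 among the clock-driven genes.

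The genes whose 4 array ratios lay nearest to the activator and the repressor that moved most were found among 13829 genes with a symbol, by Euclidean distance over the 4 arrays. For Arntl these were Cyp26b1, a retinoic acid hydroxylase (distance 0.520), Slc26a4, an anion exchanger (0.793), Chka, a choline kinase (0.843), Shh, a hedgehog ligand (0.882), and Gsta3, a glutathione transferase (0.898). Cyp26b1 gave 2.28, 1.09, 2.02 and 1.01 and shared the higher values in replicate 1 of each day. For Nr1d1 they were nearer, with Slfn8 at 0.198, the homeobox gene Lhx1 at 0.205, Lgals3bp at 0.253, Oas1a, an antiviral oligoadenylate synthetase, at 0.272 and the interferon-inducible Ifi209 at 0.281. Slfn8 gave -1.51, -1.69, -1.49 and -1.69. The points are the same 4 arrays for every gene, so a short distance says only that the ratios were alike.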

How the data were processed

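Two-colour Agilent mouse arrays were read with Feature Extraction in version 10.7.1.1, as the file headers state. The deposited scanner files hold signal intensities per spot in each channel and a log10 ratio of red over green. The authors' deposited value table matched that log10 ratio, turned to treated over control, within 1e-05 for all 45018 features of each array. The p-value of each log ratio, deposited as the scanner software gave it, was not used. The labelled dyes set the direction of every ratio.

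Median intensities were corrected with normexp (offset 50) and loess, with control and flagged spots at weight 0, in limma 3.58.1 under R 4.3.3. A probe was kept if well above background in at least 2 of 8 channel readings, and the brightest probe stood for a gene. RefSeq accessions named 23374 of 41174 probes (56.8%). A single lmFit and eBayes fit over the 4 arrays gave each day, their mean and their difference, with Benjamini-Hochberg adjustment over 25104 genes and a threshold of 0.05. Channel levels were loess and Aquantile values. The fit was tested on simulated data with independent noise on each array. Those data held no dye effect and no shared control pools, so the test does not cover them.

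The members and gene lists were chosen with earlier results of these data known. Named were all members, Cux2, up to 4 genes of each pathway list with the largest mean over both days, and the 5 genes nearest to the leading activator and repressor. 1 gene of the list of clock modifiers is not reported here. Marker genes and genes in the closing section named otherwise were chosen after their values were seen. Lymphocyte (0 rose, 2 fell of 5), endothelial (1 and 3 of 6), stellate cell (3 and 3 of 6), bile duct (1 and 0 of 5) and pancreas markers (0 and 3 of 6) were read over both days as well. Among all genes tested, 14.8% rose and 16.3% fell over both days. Alternatives were median centring, processed signals, the authors' table, no background subtraction, offset 0, 2 other filters, the mean of probes, a replicate block and leaving out each array.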

Additional observations from a re-analysis of the deposited data

Results flagged for a closer look

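Per1 lay below 0 on both day 5 arrays (-0.11 and -0.16) and above 0 on both day 8 arrays (0.13 and 0.14). The difference of day 8 minus day 5 was 0.27 (SE 0.09, 95% interval 0.03 to 0.51). It was tested in the limma fit, with an unadjusted p of 0.0351 and a limma adjusted p of 1, and so did not pass. Neither day differed from 0 after adjustment.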

How the results depend on the processing

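The 9 tested members gave 468 values under the alternatives, of which 433 kept their side of the threshold, 34 lost a call, 1 gained one and 0 called values changed sign. Counts of members called that moved by over 1.5 times were those under median centring, 0 at day 5, 0 at day 8 and 2 over both days, and those at day 8 without 1 array, which ran from 2 (without day 8 replicate 2) and 3 (without day 8 replicate 1) to 5. The cause was not tested. Fits without 1 array also rest on fewer arrays, whereas median centring kept all of them. Among all genes, median centring called 5 at day 5, 3 at day 8 and 269 over both days (87 rose and 182 fell, beside 3710 and 4090). Processed signals called 2012 and 1477 at days 5 and 8, the authors' deposited values 2001 and 1469, and offset 0 2569 and 2065, beside 4217 and 3595; no background subtraction called 2111 at day 8. Leaving out an array of the day left 842 and 239 genes at day 5 and 780 and 137 at day 8, and over both days 3880 to 5500 beside 7800. A replicate block, whose number is also the dye, called 8227, 7449 and 11245 genes; deviations of same-numbered arrays correlated at 0.500 over 25100 genes, and with 2 pairs this does not establish pairing. With the replicate block 6 members were called at day 5, 6 at day 8 and 6 over both days, 0 for the difference, and Arntl at day 8 (1.20) gained a call (limma adjusted p = 0.00174, range over its alternatives 0.00174 to 0.72). Signal near background limits Npas2.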

Other observations

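Some liver transcripts read beside the loop fell on opposite sides of 0 by replicate number, which is also the dye orientation. Cyp7a1, the rate-limiting enzyme of bile acid synthesis and a clock-driven gene, gave -0.41 and 0.70 at day 5 and -0.83 and 1.30 at day 8 (limma adjusted p = 0.762 over both days). Alb, which encodes albumin, gave 0.82 and -0.77 at day 5 and 0.91 and -0.64 at day 8 (limma adjusted p = 0.893). Nfil3, a D-box repressor that opposes Dbp, rose by 0.80 over both days (limma adjusted p = 0.00674), with 0.90, 0.65, 1.07 and 0.58 on the arrays. Of its relatives, Hlf rose by 0.23 (limma adjusted p = 0.0463) and Tef averaged 0.24 (limma adjusted p = 0.157).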
